A study of Mus musculus with 58 samples.

Results

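The subject is 10 enzymes that make serine, asparagine, proline and folate-bound one-carbon units, followed across doses of 2 chlorinated solvents in mouse liver and kidney. They are Phgdh, Psat1 and Psph of the serine pathway, Shmt1, Shmt2, Mthfd2, Mthfd1l and Aldh1l2 of folate metabolism, the asparagine synthetase Asns, and the proline enzyme Pycr1. They were picked by gene symbol as a functional set, by a rule that names no measured value but was written with earlier results of these data known, and are 10 of the 24122 genes in the deposited tables. Each of the 58 libraries holds RNA from the liver or kidney of a male B6C3F1 mouse, with no transgene or deletion named in any group. Per tissue, 28 libraries share a sample number and treatment with a library of the other tissue, so a pair may come from 1 mouse. The mice, 5 to 6 weeks old when obtained, received 1 intragastric dose of tetrachloroethylene (PCE), of trichloroethylene (TCE) or of vehicle alone, 5% Alkamuls EL-620 in saline at 5 mL/kg, after a week of acclimatisation. PCE carries a chlorine where TCE carries a hydrogen. The PCE doses were 30, 100, 300 and 1000 mg/kg and the TCE doses 24, 80, 240 and 800 mg/kg, which the labels equate with about 0.22, 0.67, 2 and 6 mmol/kg. In each tissue each chemical has its own vehicle group, which makes 20 groups of 3 libraries, except 2 in liver at 0.67 mmol/kg PCE and 2 in the kidney vehicle group of PCE. One label names the strain C57BL/6 instead, and no label states how long after dosing the tissues were taken.

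Phgdh, Psat1 and Psph act in sequence to turn the glycolytic intermediate 3-phosphoglycerate into serine. The hydroxymethyltransferases Shmt1, in the cytosol, and Shmt2, in mitochondria, split serine into glycine and a one-carbon unit carried by folate. In mitochondria Mthfd2 oxidises that unit, Mthfd1l releases it as formate, and Aldh1l2 oxidises it to carbon dioxide. Asns makes asparagine from aspartate and glutamine, and Pycr1 carries out the last step of proline synthesis. Asns, Phgdh, Psat1, Shmt2, Mthfd2, Aldh1l2 and Pycr1 are known targets of ATF4, the transcription factor of the integrated stress response, which acts when amino acids are short or mitochondria or the endoplasmic reticulum are stressed. ATF4 binds, with C/EBP partners, to a C/EBP-ATF response element, and the element before the Asns start site is a textbook example.

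The sequence before the start site was therefore searched for the core of that element, TGATGNAA, on both strands. RefSeq (GRCm38.p6) gave 10 promoter windows of 300 bases, from 250 before to 50 after the start, for 9 of the 10 genes. The core was present in 2 of these 9 genes, Asns and Pycr1, against 3.97% of all 32851 promoter windows, or 4.51% of the 27025 genes these belong to. The cAMP response element TGACGTCA was present in none of the 9, against 1.79% of windows or 2.03% of genes. The antioxidant response element core TGACNNNGC was present in 3, Asns, Phgdh and Psph, against 12.4% of windows or 14% of genes. No 2 matches overlapped, and a match describes letters and not binding. The 250 bases before the start are shown for Asns (chr6:7693210-7693459) and Pycr1 (chr11:120643749-120643998), which hold the core, and for Phgdh (chr3:98339970-98340219), an enzyme called in kidney in whose window the core was not found. All are from GRCm38.p6, read 5′ to 3′ on the gene's own strand, which is the minus strand, and capitals mark the core.
Asns: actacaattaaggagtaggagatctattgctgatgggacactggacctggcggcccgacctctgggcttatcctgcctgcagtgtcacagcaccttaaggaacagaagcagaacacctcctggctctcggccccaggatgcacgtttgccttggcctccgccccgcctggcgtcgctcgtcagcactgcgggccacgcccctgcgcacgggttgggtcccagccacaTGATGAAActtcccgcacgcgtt
Pycr1: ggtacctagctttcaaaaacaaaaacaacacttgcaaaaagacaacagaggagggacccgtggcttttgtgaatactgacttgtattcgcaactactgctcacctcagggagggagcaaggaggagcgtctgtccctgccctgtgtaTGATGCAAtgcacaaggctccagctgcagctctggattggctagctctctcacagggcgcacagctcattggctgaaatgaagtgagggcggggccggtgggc
Phgdh: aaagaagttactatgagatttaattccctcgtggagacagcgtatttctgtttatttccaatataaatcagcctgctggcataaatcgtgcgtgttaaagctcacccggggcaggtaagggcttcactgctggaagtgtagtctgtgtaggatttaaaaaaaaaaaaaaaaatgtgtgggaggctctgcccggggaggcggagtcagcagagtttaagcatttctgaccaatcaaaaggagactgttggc
In Asns the core started 23 bases before the start site, and in Pycr1 103 bases before it. The window that RefSeq gives for Mthfd2 (chr6:83317555-83317854) lies inside that gene's annotated span (chr6:83305704-83326011), and no TGATGNAA was found in it.

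In vehicle kidney and liver the enzymes stood at very different levels. Levels between genes are given as CPM, reads scaled to library size, per kilobase of transcript. They were scaled over both tissues together and averaged over the vehicle libraries of both chemicals, 6 in liver and 5 in kidney. Shmt1 was the most abundant in both tissues, at 118 ± 14.5 CPM per kilobase in liver and 26.0 ± 1.16 in kidney (SD, n = 6 and 5). Shmt2 had 8.62 ± 3.23 in liver and 8.32 ± 0.586 in kidney on the same scale, and Psph had 6.2 ± 0.6 in liver and 9.56 ± 1.22 in kidney. The entry to the serine pathway was far lower in liver than its last step. Phgdh, the first and committing enzyme, had 0.0930 ± 0.0565 CPM per kilobase in liver and 6.31 ± 1.91 in kidney. The next enzyme, Psat1, had 0.00924 ± 0.00772 in liver and 0.357 ± 0.112 in kidney, and 10 of the 29 liver libraries held no Psat1 read. Mean levels of Asns, Mthfd2, Pycr1 and Mthfd1l differed less between the tissues than those of Phgdh and Psat1. Asns and Mthfd2 had 2.14 and 2.33 in liver, and 1.77 and 1.66 in kidney. Mthfd1l was the lowest of these, at 0.0575 in liver and 0.0641 in kidney.

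In the test of liver against kidney vehicle libraries, 1 of the 10 enzymes was higher in liver and 4 were lower, where 35.8% of all 14949 genes tested were called higher and 37.1% lower. The test was edgeR's quasi-likelihood F test in a fit of all 58 libraries, which did not pair the tissues by sample number. A gene is called where its Benjamini-Hochberg adjusted p over all genes tested is under 0.05. Shmt1 was higher by 2.17 ± 0.11 (log2 fold change ± SE, adjusted p = 1.82e-21). Phgdh was lower in liver, with a log2 fold change of -6.16 ± 0.30 (adjusted p = 1.6e-22), as were Psat1 at -5.39 ± 0.46 (6.16e-14) and Aldh1l2 at -3.29 ± 0.26 (4.07e-15). Psph was lower by less, at -0.65 ± 0.10 (adjusted p = 4.2e-07). The other 5 were not called, with 95% intervals of -0.25 to 1.02 for Asns and -0.02 to 1.00 for Mthfd2. In whole tissue, fewer cells of a type and less RNA per cell cannot be told apart. The reads were counted per transcript and shared reads were set aside, so levels of Psat1, Shmt2 and Mthfd1l, which have several transcripts, are uncertain.

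**Figure D1:**
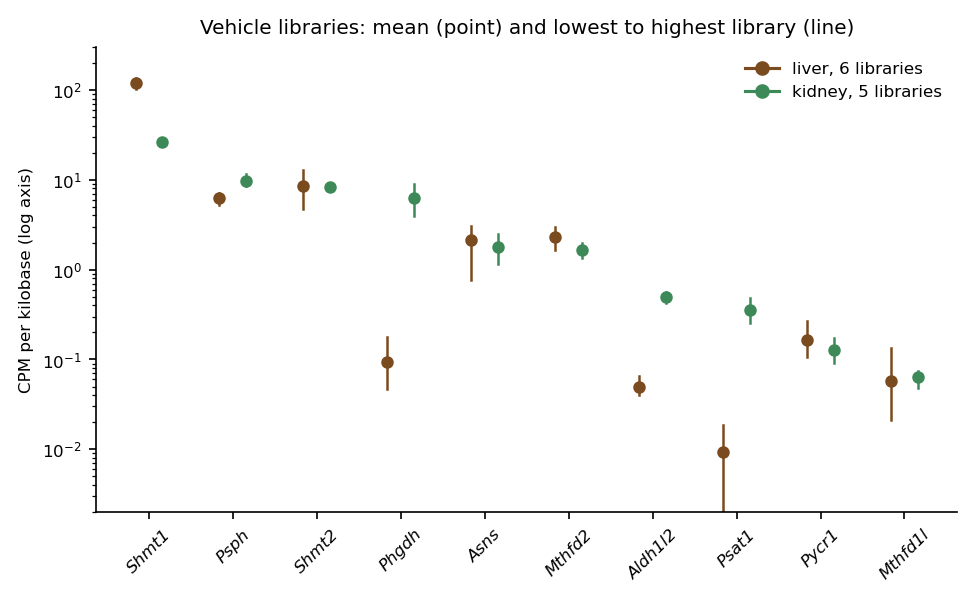
Levels of the 10 enzymes in vehicle libraries, in CPM per kilobase of transcript on a log axis, liver left of kidney for each gene; points are means and lines run from the lowest to the highest library, to the bottom of the axis where a Psat1 liver library held 0 reads. Shmt1 stands highest in both tissues, and Phgdh, Psat1 and Aldh1l2 show the widest gaps, with liver below kidney.

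Library totals were 30932385 to 125880542 counts in liver, deeper by design in vehicle and 6 mmol/kg libraries, and 23247565 to 32420329 in kidney. Hepatocyte markers (10 genes) summed to 89900 to 163000 CPM in liver libraries, and proximal tubule markers (10 genes) to 55100 to 83100 CPM in kidney libraries. Among kidney libraries, replicate 3 at 0.67 mmol/kg TCE stood apart, with 5110 CPM of 6 adrenal cortex markers against at most 16.5 CPM in every other kidney library. Fat markers (7 genes, with Plin1 near 0) ranged from 24.4 to 488 CPM in kidney. The summed markers of the third proximal tubule segment, S3 (6 genes), were lower at the top dose, as given below.

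In kidney, 6 mmol/kg PCE raised 3 of the 10 enzymes and lowered none, where 1.77% of all 14216 genes tested were called higher and 2.06% lower. The 3 were Asns (chr6:7675165-7693209), Mthfd2 (chr6:83305704-83326011) and Phgdh (chr3:98313171-98339969). All values below are CPM on one scale per tissue, in the order of the replicate numbers, and each dose was set against the vehicle group of its own chemical.

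Asns had 44.0, 55.9 and 41.2 CPM at 6 mmol/kg PCE, against 3.92 and 3.35 CPM in vehicle kidneys. Every treated library was more than 10 times the higher vehicle library of PCE, and the groups did not overlap. The vehicle kidneys of TCE stood higher, at 6.36, 4.96 and 7.23 CPM, and also below every treated library. Against the PCE vehicle group the log2 fold change was 3.70 ± 0.42, a 13.0-fold rise (95% interval 2.82 to 4.58 on the log2 scale, adjusted p = 3.51e-05). Over 13 repeats with other settings or library sets it ranged from 3.31 to 3.81.

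Mthfd2, the mitochondrial dehydrogenase, had 26.6, 29.2 and 29.0 CPM at 6 mmol/kg PCE, against 5.57 and 4.14 CPM in vehicle kidneys. The treated libraries lay close together and all above the vehicle libraries. The log2 fold change was 2.54 ± 0.33, a 5.83-fold rise (adjusted p = 0.000132).

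Phgdh had 43.9, 96.6 and 81.0 CPM at 6 mmol/kg PCE, against 19.6 and 24.4 CPM in vehicle kidneys. The treated libraries differed among themselves, with the first well below the other two, yet none reached down to the vehicle range. The log2 fold change was 1.75 ± 0.37, a 3.36-fold rise (adjusted p = 0.0093). The call rested on both vehicle libraries, being lost without replicate 1 (1.60, adjusted p = 0.157) or replicate 2 (1.92, adjusted p = 0.0998), where the single vehicle library left is assumed to vary like the other groups.

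The enzymes after Phgdh in the serine pathway did not pass the test. Psat1 had 3.04, 4.24 and 3.47 CPM at 6 mmol/kg PCE, against 1.84 and 1.78 CPM in vehicle kidneys, and the groups did not overlap. Its log2 fold change was 0.98 ± 0.36 (95% interval 0.23 to 1.74, adjusted p = 0.146). Set against the mean of both vehicle groups, with their 5 libraries, it was 1.37 with an adjusted p of 0.00292. The last enzyme, the phosphatase Psph, had 25.6, 28.3 and 29.9 CPM at 6 mmol/kg PCE, against 24.9 and 28.9 CPM in vehicle kidneys, a log2 fold change of 0.05 ± 0.13 (95% interval -0.22 to 0.33).

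Of the other folate enzymes none was called. Shmt2 had 25.9, 31.2 and 29.3 CPM at 6 mmol/kg PCE, against 29.2 and 30.0 CPM in vehicle kidneys, a log2 fold change of -0.04 ± 0.12 (95% interval -0.28 to 0.20). Shmt1 had 175, 108 and 134 CPM at 6 mmol/kg PCE, against 106 and 115 CPM in vehicle kidneys, which overlapped. Its log2 fold change was 0.33 ± 0.14 (adjusted p = 0.236), and it passed with both vehicle groups averaged (0.36, adjusted p = 0.0482). Aldh1l2 had 3.44, 10.2 and 6.43 CPM at 6 mmol/kg PCE, against 3.73 and 4.56 CPM in vehicle kidneys, an SD of 50.4% of the mean, the widest of the 10 enzymes at that dose. Its log2 fold change was 0.69 ± 0.31 (adjusted p = 0.26).

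The last 2 enzymes were below 0.5 CPM in the vehicle kidneys of PCE and were not called. Mthfd1l had 0.440, 0.499 and 0.442 CPM at 6 mmol/kg PCE, against 0.384 and 0.255 CPM in vehicle kidneys (0.54 ± 0.34, adjusted p = 0.504). Pycr1, whose window holds the element core shown above, had 0.720, 0.748 and 0.646 CPM at 6 mmol/kg PCE, against 0.384 and 0.478 CPM in vehicle kidneys (0.70 ± 0.37, adjusted p = 0.349). For both the treated libraries were above the vehicle libraries of PCE. Those of Pycr1 overlapped the vehicle kidneys of TCE, which had 0.526, 0.725 and 0.545 CPM. With so few libraries per group, separation of an uncalled gene can arise by chance, here and at other doses. Psph, for example, also separated from vehicle at 0.22 mmol/kg TCE in kidney, at a ratio of means of 1.09. The share of all genes that separate was not counted. The median log2 fold change over the 10 enzymes was 0.69, beside 0.03 over all genes tested.

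**Figure D2:**
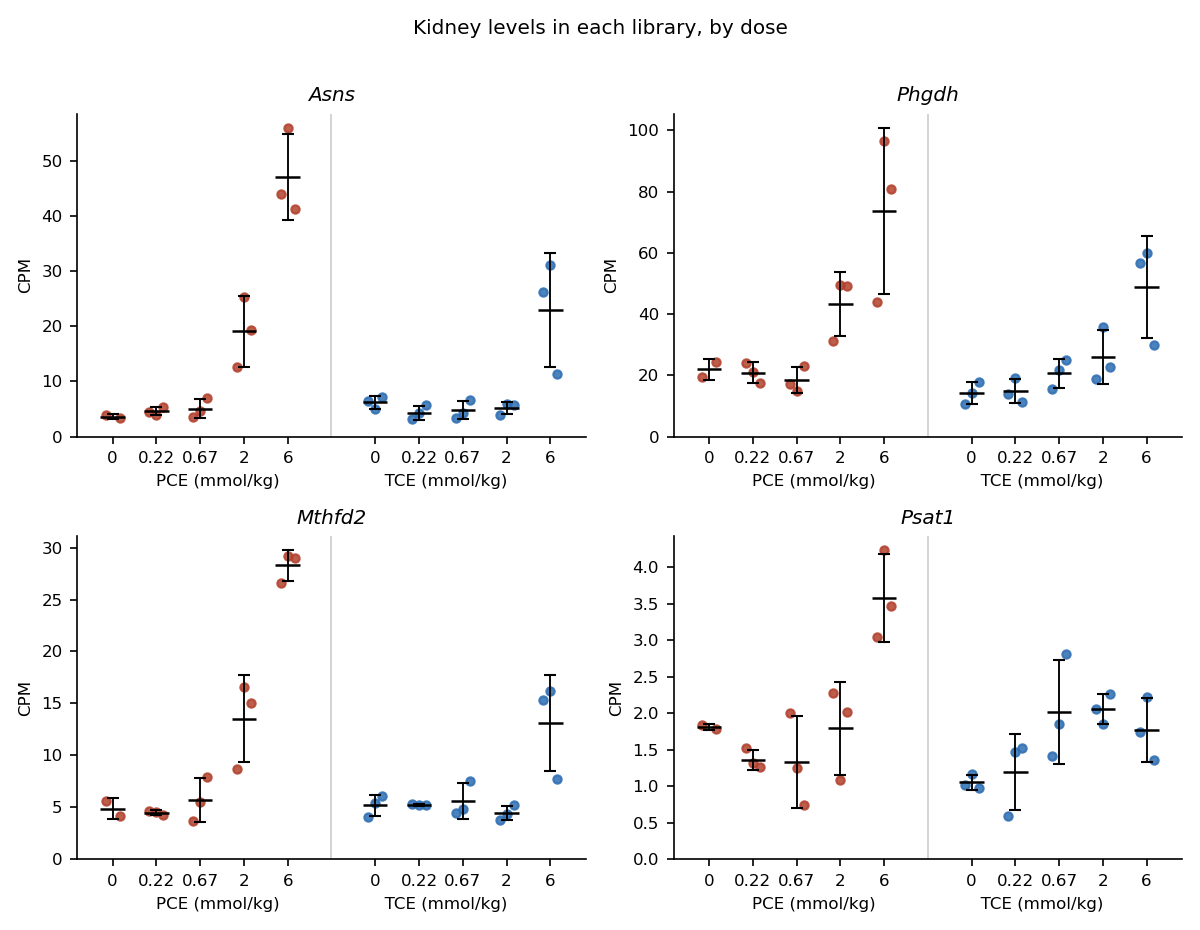
Kidney CPM of Asns, Phgdh, Mthfd2 and Psat1 in each library (points) by dose in mmol/kg, PCE left and TCE right, with group means (bars) and SD. Asns and Mthfd2 stand above their vehicle groups at 2 and 6 mmol/kg PCE and at 6 mmol/kg TCE, where 1 of the 3 libraries is lower than the other two.

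At 2 mmol/kg PCE the kidney already showed 1 called enzyme, Asns, where 0.00703% of all genes tested were called higher and as many lower, a single gene each way. Asns had 12.5, 25.3 and 19.4 CPM at 2 mmol/kg PCE, against 3.92 and 3.35 CPM in vehicle kidneys, without overlap. The log2 fold change was 2.39 ± 0.40, a 5.25-fold rise (adjusted p = 0.049). This call sat at the threshold. It was lost without vehicle replicate 1 (adjusted p = 0.64) or 2 (0.73), without 2 mmol/kg replicate 2 (0.284) or 3 (0.283), and without the kidney library rich in adrenal markers (0.0542). It was also lost with the replicate number as a block (0.119), without the count filter (0.101) and with PCE libraries alone (0.0634). The log2 fold change stayed between 2.13 and 2.51 in those fits. Mthfd2 had 8.71, 16.6 and 15.1 CPM at this dose, all above its vehicle libraries, with a log2 fold change of 1.47 ± 0.32 and an adjusted p of 0.17. It passed without replicate 1 of the dose, the lowest of the 3 (1.70, adjusted p = 0.0301). Phgdh had 31.1, 49.4 and 49.3 CPM, also all above its vehicle libraries, with a log2 fold change of 0.97 ± 0.36 and an adjusted p of 0.603.

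At 0.22 and 0.67 mmol/kg PCE no enzyme was called in kidney, and neither was any gene (0% at both doses). No enzyme there had an unadjusted p under 0.05, and DESeq2 called none either. Asns had 4.49, 3.94 and 5.39 CPM at 0.22 mmol/kg and 3.58, 4.62 and 6.99 CPM at 0.67 mmol/kg. Over the whole dose range, fitted as a straight line on the dose rank from 0 to 4, 3 of the 10 enzymes rose with PCE, beside 1.94% of 13818 genes called higher. Asns rose by 1.01 ± 0.10 per rank on the log2 scale (adjusted p = 0.000921), Mthfd2 by 0.71 ± 0.09 (0.00128) and Phgdh by 0.49 ± 0.09 (0.0138). All 3 trends held when any one library was left out.

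TCE at 6 mmol/kg also raised Asns, Phgdh and Mthfd2 in kidney and lowered no enzyme. Across all 14216 genes tested this dose called 0.0633% higher and 0.113% lower, so the 3 were among 9 genes called higher. Asns had 26.2, 31.0 and 11.3 CPM at 6 mmol/kg TCE, against 6.36, 4.96 and 7.23 CPM in vehicle kidneys (1.89 ± 0.33, a 3.70-fold rise, adjusted p = 0.0211). Phgdh had 56.7, 60.0 and 29.8 CPM, against 10.7, 14.1 and 17.9 CPM in vehicle kidneys (1.77 ± 0.33, a 3.41-fold rise, adjusted p = 0.0245). Mthfd2 had 15.3, 16.1 and 7.75 CPM, against 4.03, 5.36 and 6.10 CPM in vehicle kidneys (1.34 ± 0.28, a 2.53-fold rise, adjusted p = 0.0448).

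In all 3 genes replicate 3 of the TCE dose was the lowest of its group, and it was still above every vehicle library. Without that library the log2 fold changes were 2.21 for Asns, 2.03 for Phgdh and 1.60 for Mthfd2, all called. The 3 calls were lost together, at adjusted p of 0.0964 to 0.332, without any one of dose replicates 1 and 2 and vehicle replicates 1 and 2, with fold changes of 1.16 to 1.90 on the log2 scale. All 3 were also lost with TCE libraries alone (adjusted p = 0.063 each), Phgdh (0.0532) and Mthfd2 (0.0629) without the count filter, and Mthfd2 with length and GC slopes as covariates (1.26, adjusted p = 0.0547). Psat1 had 1.74, 2.22 and 1.35 CPM at 6 mmol/kg TCE, against 1.01, 1.17 and 0.981 CPM in vehicle kidneys, without overlap, and was not called (0.75 ± 0.35, adjusted p = 0.463). The other 6 enzymes had log2 fold changes of 0.04 to 0.45. The median of the 10 was 0.32, beside 0.01 over all genes.

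Lower TCE doses called no enzyme in kidney, where 0%, 0.00703% and 0% of genes were called at 0.22, 0.67 and 2 mmol/kg. DESeq2 also called none, and 1, 1 and 2 of the 10 enzymes had an unadjusted p under 0.05 at these doses. The single ones were Pycr1 at 0.22 mmol/kg (-0.71 ± 0.34, adjusted p = 0.955) and Psat1 at 0.67 mmol/kg (0.95 ± 0.34, adjusted p = 0.29). At 2 mmol/kg Phgdh had 18.9, 35.8 and 22.9 CPM, against 10.7, 14.1 and 17.9 CPM in vehicle kidneys, a log2 fold change of 0.85 ± 0.32 with an adjusted p of 1.0. Psat1 had 2.06, 1.85 and 2.26 CPM at 2 mmol/kg TCE, a log2 fold change of 0.96 ± 0.35 with an adjusted p of 1.0. Both sets lay above all 3 vehicle libraries. Asns and Mthfd2 overlapped their vehicle libraries at that dose, with log2 fold changes of -0.25 ± 0.34 and -0.23 ± 0.29. The trend over TCE dose called no enzyme and 0% of 13702 genes. Phgdh came nearest, at 0.44 ± 0.07 per rank (adjusted p = 0.052), and 5 enzymes had an unadjusted p under 0.05. DESeq2 called Phgdh in that trend (adjusted p = 6.41e-06), and so did edgeR without the adrenal-rich library (adjusted p = 0.0423) or without any one of the 3 libraries at 2 mmol/kg (0.0343 to 0.0394).

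Across the 10 kidney groups, 6 mmol/kg PCE, 6 mmol/kg TCE and 2 mmol/kg PCE had the highest means of all 3 enzymes. For Asns these means were 47.0 ± 7.79, 22.9 ± 10.3 and 19.1 ± 6.41 CPM, in that order, and the next group was the vehicle of TCE at 6.18 ± 1.15 CPM (SD, n = 3 each). The libraries of 6 mmol/kg TCE and 2 mmol/kg PCE overlapped, while those of 6 mmol/kg PCE lay above both. For Mthfd2 the mean was 28.3 ± 1.47 CPM at 6 mmol/kg PCE, clear of the rest, 13.5 ± 4.19 CPM at 2 mmol/kg PCE and 13.1 ± 4.64 CPM at 6 mmol/kg TCE, which overlapped. For Phgdh it was 73.8 ± 27.1 CPM at 6 mmol/kg PCE, 48.8 ± 16.6 CPM at 6 mmol/kg TCE and 43.2 ± 10.5 CPM at 2 mmol/kg PCE, and neighbours in that order overlapped.

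**Figure D3:**
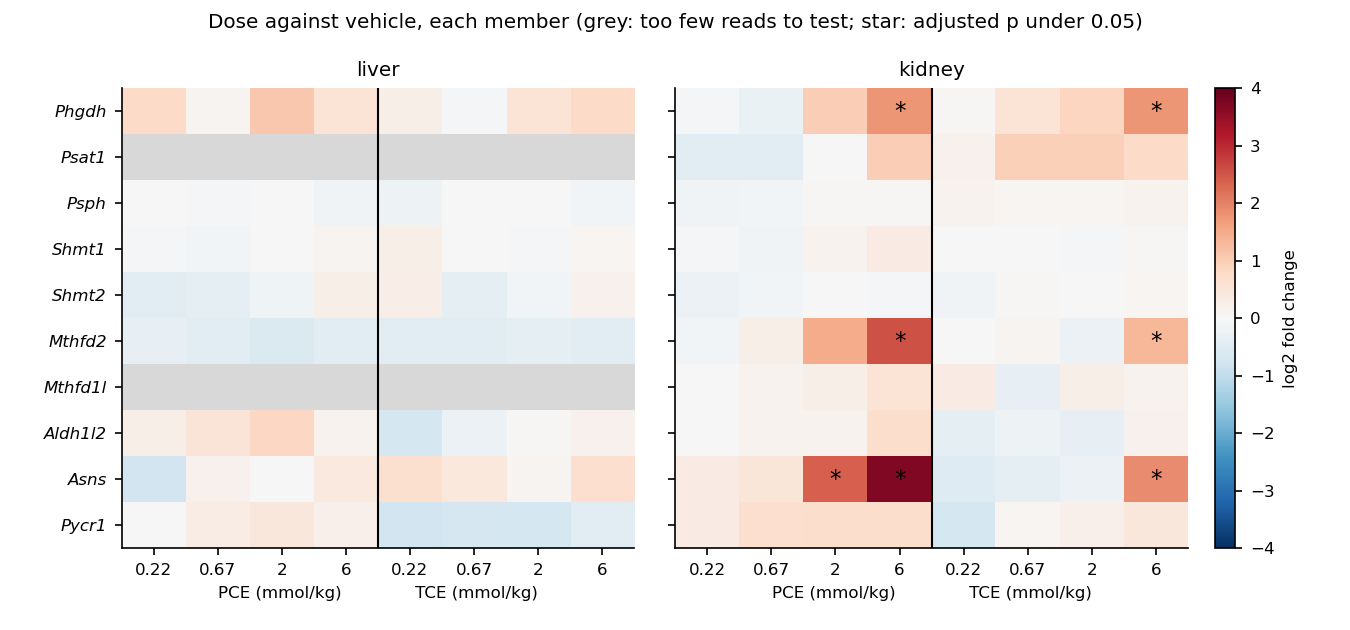
Log2 fold change of each enzyme at each dose against its own vehicle group, for liver (left) and kidney (right), PCE before TCE and doses in mmol/kg from low to high; stars mark adjusted p under 0.05 and grey marks genes with too few reads to test. The 7 stars are all in kidney, on Asns, Mthfd2 and Phgdh.

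The 2 solvents were compared at equal molar doses as the difference of their fold changes, PCE minus TCE. Over both tissues this gave 72 differences, and p-values were adjusted over all genes at each dose. In kidney no enzyme was called at 0.22, 0.67, 2 or 6 mmol/kg, where 0%, 0%, 0% and 0.0211% of genes were called. Unadjusted p-values under 0.05 were found for 0, 1, 2 and 2 enzymes at these doses, and DESeq2 called 0, 0, 1 and 1. The estimate for Asns was 2.64 ± 0.52 at 2 mmol/kg (95% interval 1.55 to 3.73, unadjusted p = 4.87e-05, adjusted p = 0.346) and 1.81 ± 0.51 at 6 mmol/kg (0.75 to 2.86, adjusted p = 0.299). For Mthfd2 it was 1.70 ± 0.43 at 2 mmol/kg (0.82 to 2.58, adjusted p = 0.934) and 1.2 ± 0.41 at 6 mmol/kg (0.35 to 2.06, adjusted p = 0.428). For Phgdh the difference was 0.12 ± 0.48 at 2 mmol/kg (-0.88 to 1.12) and -0.02 ± 0.47 at 6 mmol/kg (-1.01 to 0.96). A p that misses the threshold does not show that the solvents act alike.

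The vehicle groups enter these differences. Vehicle Asns had 3.92 and 3.35 CPM in the PCE series, against 6.36, 4.96 and 7.23 CPM in the TCE series, a log2 difference of -0.77 ± 0.40 that was not called (adjusted p = 0.63). Vehicle Phgdh and Psat1 lay the other way, at 0.62 ± 0.36 and 0.78 ± 0.38. No enzyme and 0% of genes were called between the vehicle groups, 1 enzyme had an unadjusted p under 0.05, and DESeq2 called none. Compared directly, without vehicle, PCE at 2 mmol/kg exceeded TCE for Asns by 1.87 (adjusted p = 0.0357) and for Mthfd2 by 1.60 (0.0236), and at 6 mmol/kg for Mthfd2 by 1.11 (0.0452). The DESeq2 calls were Asns at 2 mmol/kg (adjusted p = 0.000682) and at 6 mmol/kg (0.0485).

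In liver no enzyme was called at any dose of either solvent. Of the 10, 8 were tested, since Psat1 and Mthfd1l had too few reads. At 0.22, 0.67, 2 and 6 mmol/kg, 0.00759%, 0.00759%, 0.182% and 5.84% of 13174 genes were called for PCE, and 0%, 0.00759%, 0.00759% and 1.31% for TCE. At 6 mmol/kg PCE these were 2.28% higher and 3.56% lower, at 2 mmol/kg PCE 0.121% higher and 0.0607% lower, and at 6 mmol/kg TCE 0.539% higher and 0.767% lower. A single liver value among these 8 comparisons, Phgdh at 2 mmol/kg PCE, had an unadjusted p under 0.05 (1.07 ± 0.51, adjusted p = 0.418), and DESeq2 called none. The trend over dose called no enzyme, beside 11.8% of 13029 genes for PCE (5.07% higher and 6.73% lower), with 8 enzymes tested, and 0.851% of 12452 genes for TCE, with 7 tested. No trend had an unadjusted p under 0.05 for an enzyme, and DESeq2 called none.

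Liver Asns had 5.55, 4.47 and 1.68 CPM at 6 mmol/kg PCE, against 3.54, 2.88 and 2.58 CPM in vehicle livers, which overlapped (0.38 ± 0.46, 95% interval -0.57 to 1.32). At 6 mmol/kg TCE it had 5.07, 4.01 and 4.30 CPM, against 3.06, 1.07 and 4.23 CPM in vehicle livers (0.68 ± 0.46, -0.27 to 1.63). Liver Mthfd2 had 1.03, 4.54 and 1.39 CPM at 6 mmol/kg PCE, against 3.14, 2.85 and 3.29 CPM in vehicle livers (-0.41 ± 0.37, -1.18 to 0.35). Replicate 2 of that dose set the result, since without it Mthfd2 was called lower, at -1.36 (adjusted p = 0.00959). Shmt1, the abundant liver enzyme, had 250, 236 and 271 CPM at 6 mmol/kg PCE, against 249, 191 and 269 CPM in vehicle livers, a log2 fold change of 0.10 ± 0.17 (-0.25 to 0.44). Psph lay at -0.15 ± 0.15 and Shmt2, which ranged from 4.59 to 20.6 CPM over all liver libraries, at 0.22 ± 0.42. Phgdh stayed under 0.4 CPM in every liver library, and its fold change at 6 mmol/kg was 0.56 ± 0.47 with PCE and 0.75 ± 0.45 with TCE. Psat1 held 7, 16 and 6 reads in the livers at 6 mmol/kg PCE, against 0, 0 and 2 reads in vehicle livers, too few for the test. Tested without the count filter, its PCE trend was 1.00 per rank (adjusted p = 0.0134). The liver libraries at 6 mmol/kg PCE also differed in base composition, with slopes of log2 CPM on GC content, per 10 percentage points, of -0.23, -0.19 and -0.35, against 0.03, 0.20 and -0.01 in vehicle livers. With these slopes and those on length as covariates, still no enzyme was called at that dose.

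**Figure D4:**
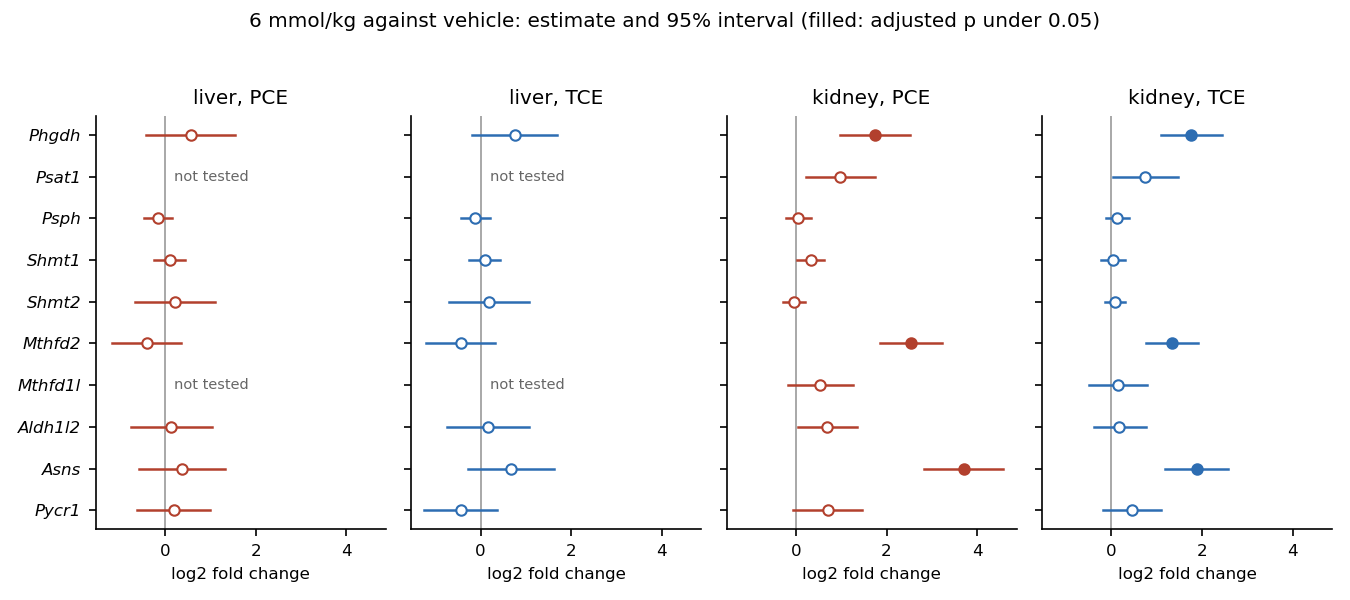
Log2 fold change of each enzyme at 6 mmol/kg against vehicle (points, filled where adjusted p is under 0.05) with 95% intervals, for liver with PCE and TCE and kidney with PCE and TCE. Filled points are Asns, Mthfd2 and Phgdh in both kidney panels, and every tested liver interval includes 0.

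The difference between tissues was tested as the liver response minus the kidney response at 6 mmol/kg, without pairing by sample number. With PCE, 2 of the 10 enzymes responded less in liver and none more, where 0.334% of 14949 genes were called lower and 0.375% higher. For Asns the difference was -3.32 ± 0.64 (95% interval -4.62 to -2.02, adjusted p = 0.00486), and for Mthfd2 -2.97 ± 0.52 (-4.01 to -1.93, adjusted p = 0.00132). The Asns call was lost without kidney vehicle replicate 2 of the PCE series (-3.19, adjusted p = 0.0949), which leaves that group with a single library. For Phgdh the difference was -1.17 ± 0.62 (adjusted p = 0.394). Psat1 lay the other way, at 2.31 ± 0.93 (0.43 to 4.2, adjusted p = 0.254), on 0 to 16 reads per liver library. With PCE, 3 enzymes had an unadjusted p under 0.05. With TCE no enzyme was called, beside 0.328% of genes. The nearest was Mthfd2 at -1.79 ± 0.47 (adjusted p = 0.0851), which DESeq2 called (adjusted p = 0.0229), and 2 enzymes had an unadjusted p under 0.05. In liver, PCE and TCE responses differed for no enzyme at 0.22, 0.67, 2 or 6 mmol/kg, beside 0%, 0.0228% (0.0152% higher, 0.00759% lower), 0% and 0% of genes, nor between vehicle groups, beside 0%. At 0.22 mmol/kg 1 enzyme had an unadjusted p under 0.05 in that comparison, at the other doses and between vehicles none had, and DESeq2 called none.

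Related genes were followed in 6 lists set by function. In kidney at 6 mmol/kg PCE, of 21 tested regulators and targets of the ATF4 pathway 7 rose and none fell, beside 1.77% of all genes called higher and 2.06% lower, with a median of 0.38 on the log2 scale against 0.03 over all genes. Trib3, a pseudokinase induced by ATF4, averaged 9.14 ± 3.09 CPM at 6 mmol/kg PCE and 0.696 ± 0.00677 CPM in vehicle kidneys (SD, n = 3 and 2), a log2 fold change of 3.71 ± 0.41 (adjusted p = 1.81e-05). Chac1, which degrades glutathione, averaged 13.7 ± 5.25 and 1.47 ± 0.587 CPM in the same groups (3.23 ± 0.53, adjusted p = 0.00131). Eif4ebp1, an inhibitor of cap-dependent translation, averaged 47.4 ± 2.25 and 12.7 ± 2.88 CPM (1.90 ± 0.22, adjusted p = 3.51e-05). The RNA of Atf4 itself had a log2 fold change of -0.07 (adjusted p = 0.97) and that of Ddit3 0.18 (0.841), both singled out after their values were seen.

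Of 20 cytosolic aminoacyl-tRNA synthetases, which load amino acids onto tRNAs and include ATF4 targets, 6 rose with 6 mmol/kg PCE and none fell, again beside 1.77% of all genes higher and 2.06% lower, with a median of 0.27. The glycine enzyme Gars rose by 0.74 ± 0.07 (adjusted p = 3.74e-06), the isoleucine enzyme Iars by 0.62 ± 0.09 (0.000354) and the serine enzyme Sars by 1.19 ± 0.20 (0.00149). Of 14 amino acid transporters 2 rose, the glycine carrier Slc6a9 by 0.69 ± 0.13 (adjusted p = 0.0029) and the neutral amino acid carrier Slc38a2 by 0.73 ± 0.19 (0.0341), and none fell, with a median of 0.58. The lists of breakdown and neighbouring pathways held no gene called higher. Of 20 genes of serine and glycine breakdown and the methionine cycle 1 fell, Cbs, which condenses serine with homocysteine (-0.43 ± 0.12, adjusted p = 0.0405). None of the 17 other folate genes passed the test.

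At 6 mmol/kg TCE in kidney no gene of the 6 lists was called, and the ATF4 list had a median of 0.01. Trib3 stood at 0.05 (adjusted p = 0.983) and Chac1 at -0.69 (0.667) there, while Atf5, a transcription factor related to ATF4, stood at 2.08 (0.0858) and Eif4ebp1 at 0.80 (0.0821). In liver at 6 mmol/kg PCE, 3 of 20 tested ATF4 pathway genes rose and none fell, beside 2.28% of all genes called higher and 3.56% lower, with a median of -0.08. These were Trib3 (1.30 ± 0.30, adjusted p = 0.0168), Sesn2 (1.02 ± 0.25, 0.021), which restrains the growth kinase complex mTORC1, and Chac1 (1.98 ± 0.49, 0.0214). In the same livers Cbs fell (-1.08 ± 0.14, adjusted p = 0.00026), as did the glycine enzyme Gcat (-0.99 ± 0.28, 0.0394). Mat1a, which makes S-adenosylmethionine in hepatocytes, rose (1.11 ± 0.30, 0.0327), and no transporter, tRNA synthetase or other folate gene was called. No gene of the 6 lists was called in liver at 6 mmol/kg TCE.

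**Figure D5:**
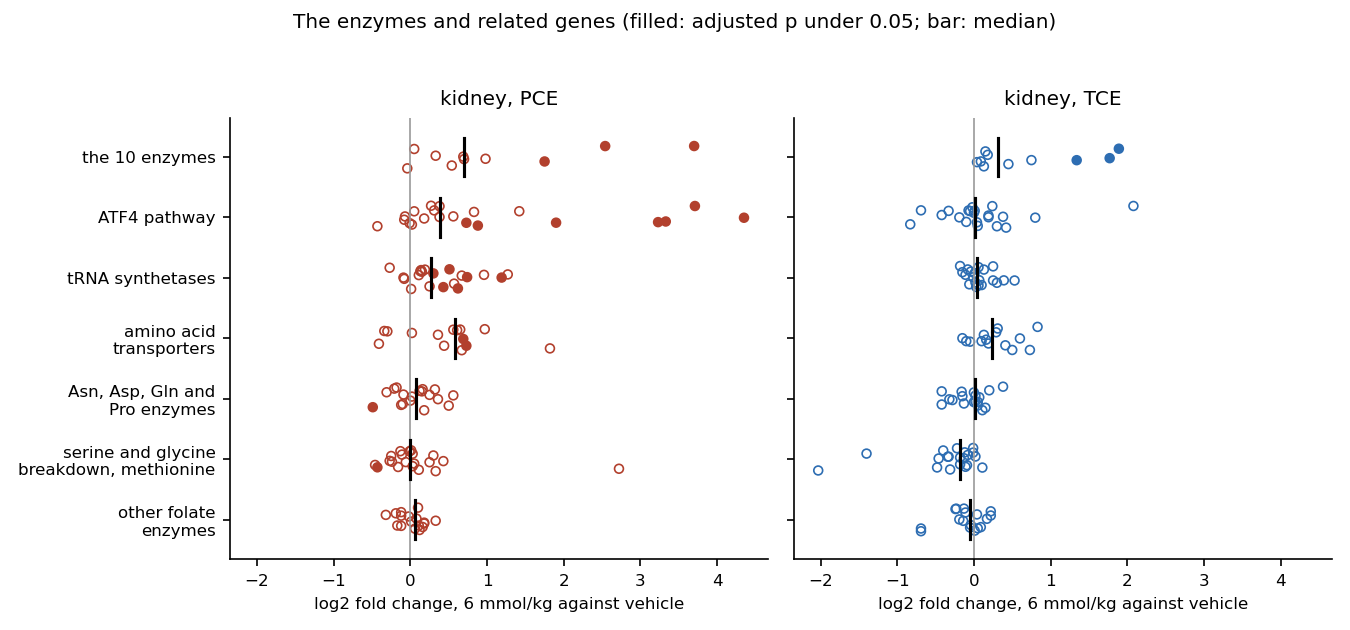
Log2 fold changes in kidney at 6 mmol/kg against vehicle for the 10 enzymes and the 6 related lists, PCE left and TCE right; each point is a gene, filled where adjusted p is under 0.05, and bars are medians. With PCE the filled points above 0 lie in the ATF4, tRNA synthetase and transporter rows besides the enzymes, and with TCE only 3 enzymes are filled.

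Other markers moved in the same kidneys. The S3 proximal tubule markers summed to 1230 to 1430 CPM at 6 mmol/kg PCE and 2150 to 2750 CPM in its vehicle kidneys. Of the 6 markers 3 fell (Slc22a7, Slc7a13 and Slc5a8, with a list median of -0.77), beside 2.06% of all genes called lower. The S3 markers summed to 1640 to 1750 CPM at 6 mmol/kg TCE and 2570 to 3620 CPM in its vehicle kidneys. There 2 of 6 fell (Slc22a7 and Slc7a13, with a median of -0.53), beside 0.113% of all genes called lower. The 10 general proximal tubule markers summed to 55100 to 56000 CPM at 6 mmol/kg PCE and 73500 to 75600 CPM in vehicle kidneys, with 1 called lower, and to 62000 to 67800 CPM at 6 mmol/kg TCE and 70800 to 83100 CPM in vehicle kidneys, with none called. At 2 mmol/kg PCE, where Asns was called, the S3 markers summed to 1230 to 2060 CPM and the general ones to 61400 to 65900 CPM, both below the vehicle range, with none called. Thick ascending limb markers (5 genes) were above the vehicle range of 1060 to 1210 CPM at 2 mmol/kg PCE (1350 to 1610) and 6 mmol/kg PCE (1390 to 1650), and at 6 mmol/kg TCE they summed to 918 to 1070 CPM against 1110 to 1210 in vehicle kidneys. Distal and collecting duct markers (8 genes) summed to 757 to 909 CPM at 2 mmol/kg PCE and 852 to 863 CPM at 6 mmol/kg PCE, against 987 to 1040 CPM in vehicle kidneys. Macrophage markers (8 genes, 4 of them near 0) summed to 50.6 to 66.2 CPM at 6 mmol/kg PCE and 66.5 to 87.0 CPM in its vehicle kidneys, and to 70.0 to 82.7 CPM at 6 mmol/kg TCE and 97 to 134 CPM in its vehicle kidneys. No gene of these 3 lists was called at those doses. Fat markers summed to 44.8, 36.7 and 486 CPM at 6 mmol/kg PCE, against 24.4 and 78.6 CPM in vehicle kidneys, and to 251, 486 and 46.3 CPM at 6 mmol/kg TCE, against 63.3, 183 and 79.7 CPM. None of the 7 was called at either dose, with medians of 1.82 for PCE and 0.93 for TCE. At 6 mmol/kg TCE all 3 libraries ranked alike in fat markers, Asns, Phgdh and Mthfd2, with replicate 3 lowest and replicate 2 highest. At 6 mmol/kg PCE the library highest in fat markers was not the highest in any of these 3 enzymes. Without that PCE library the 3 fold changes were 3.77, 1.66 and 2.51 for Asns, Phgdh and Mthfd2, all called. The part of these marker changes in the results on the enzymes was not tested.

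The genes with kidney profiles most like each called enzyme were found by the root mean square difference of log2 fold changes over the 8 dose comparisons, among 10929 genes with a mean of at least 1 CPM. The 10 enzymes themselves and genes known only by a clone or model name were left out of that ranking. For Asns the nearest of these other genes were Atf5 (0.41), Cyp4a10 (0.56) and Angptl4 (0.67), where the distance of Asns itself from no change was 1.72. For Mthfd2 they were Acot1 (0.38), Cyp4a10 (0.39) and Eif4ebp1 (0.42), with a distance from no change of 1.15. Cyp4a10, Acot1 and Angptl4 are known targets of the fatty acid receptor PPARα. For Phgdh they were Prrg4 (0.41), Abcb1a (0.49) and Map3k6 (0.49), with a distance from no change of 1.01. Between the enzymes themselves the difference was 0.58 for Phgdh and Mthfd2, 0.64 for Asns and Mthfd2, less than for Angptl4, and 1.05 for Asns and Phgdh. The 4 comparisons of a chemical share its vehicle libraries, so these 8 values are not independent.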

How the data were processed

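RNA of 58 mouse liver and kidney libraries was made with TruSeq Total RNA kits and read on a HiSeq-2000, per the labels' protocols. The deposited tables hold raw read counts per RefSeq transcript. The 0.22 and 0.67 mmol/kg columns carry a decimal dose above whole numbers, and only for that line were they listed as deposited expected counts. Like all other columns they hold whole-number counts, and nothing was rounded. CASAVA 1.8.2, TopHat2 2.0.10, HTSeq and mm10 are named, without roles, per the submitters' processing notes. The strand setting is not given in the sources used here, so reads of overlapping antisense genes cannot be told apart. Reads that were ambiguous (19.68 to 22.55% of a library) or in no feature (14.29 to 27.53%) stayed out of totals and tests, and 33392 transcripts were summed to 24122 genes.

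Doses were tested against vehicle in edgeR 4.0.16 (R 4.3.3) with TMM scaling, filterByExpr and a robust quasi-likelihood fit of the 10 groups of a tissue. F tests were two-sided with Benjamini-Hochberg adjustment, and the SE was taken as |log2 fold change|/√F. Trends used dose ranks, and 1 fit of all libraries compared tissues. CPM was computed here on TMM-scaled totals. The biological coefficient of variation, over all genes, came to 0.257 in liver and 0.156 in kidney. Chi-square over degrees of freedom was 14.57 or more in all 56 replicate pairs, beyond sampling noise. No label says whether replicate numbers mark a shared day or cage, so the p-values rest on the spread among these libraries, which may be technical in part. DESeq2 1.42.0 and other settings were alternatives, and scripts were tested on simulated data.

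The 10 genes, the lists and the markers were chosen with earlier results of these data known. Named are all 10, up to 3 called genes per list and direction at 6 mmol/kg with a mean of at least 1 CPM, and the 3 genes nearest in profile to each called enzyme. Some genes that this rule covers are not reported here.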

Additional observations from a re-analysis of the deposited data

Results flagged for a closer look

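Asns and Mthfd2 are singled out because their responses to 6 mmol/kg PCE differed between the tissues in the test of the difference itself. The liver response minus the kidney response was -3.32 for Asns (adjusted p = 0.00486) and -2.97 for Mthfd2 (adjusted p = 0.00132, edgeR). Asns rose in 3 of 3 kidneys above both vehicle libraries, while liver values overlapped their vehicle range. Mthfd2 rose in 3 of 3 kidneys, while 2 of the 3 treated livers were below all vehicle livers and the other was above them.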

How the results depend on the processing

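The 33 comparisons were repeated with DESeq2's size factors, without a count filter, with DESeq2's Wald test, with a replicate block, with length and GC slopes, with other vehicle or library sets, and without each library. In 21 of them no enzyme was called under any setting. Over 280 repeats of the called fold changes, 251 kept direction and call, 29 kept direction and lost the call, and 0 reversed. The losses were 8 of 13 repeats for Asns at 2 mmol/kg PCE and 2 of 13 for Phgdh at 6 mmol/kg PCE in kidney. At 6 mmol/kg TCE in kidney they were 5, 6 and 7 of 14 for Asns, Phgdh and Mthfd2. The last was 1 of 18 for Asns in the liver minus kidney difference for PCE. Calls of the PCE trends and between vehicle tissues lost none. Leaving out the kidney library rich in adrenal markers was added after seeing the data.

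The number of enzymes called in kidney at 2 mmol/kg PCE, 1 as reported, was 0 without a count filter, with the replicate block or with PCE libraries alone, 2 with DESeq2 or both vehicle groups averaged, and 0 to 2 without 1 library. At 6 mmol/kg PCE it was 3, and 5 with both vehicle groups averaged, 2 to 4 without 1 library. At 6 mmol/kg TCE it was 3, and 1 without a count filter, 0 with TCE libraries alone, and 0 to 3 without 1 library. The kidney TCE trend gave 1 with DESeq2 and 0 to 1 without 1 library. The PCE minus TCE difference in kidney gave 1 with DESeq2 and 2 without vehicle at 2 mmol/kg, and 1 with either at 6 mmol/kg. The liver minus kidney difference gave 1 with DESeq2 for TCE, 0 to 1 without 1 library for TCE and 1 to 2 for PCE. In liver the PCE trend gave 1, Psat1, without a count filter, and both the trend and 6 mmol/kg PCE gave 0 to 1 without 1 library. The cause was not tested.

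Deviations of libraries from their group means were compared by replicate number. Same-numbered libraries of different groups had a median correlation of 0.008 in kidney (35 of 126 pairs above 0.1) and -0.007 in liver (42 of 126). Pairs with other numbers had -0.003 in kidney (56 of 252) and -0.007 in liver (98 of 252). The replicate block lost the Asns call at 2 mmol/kg PCE (log2 fold change 2.30, adjusted p = 0.119) and changed no other count of calls by more than 1.5 times. Liver and kidney libraries with the same sample number deviated together more often, with a median correlation of 0.047 (11 of 28 above 0.1), against -0.025 (5 of 56) for other numbers of the same treatment. With sample number as a replicate block the liver minus kidney difference for PCE was -3.58 for Asns (adjusted p = 0.0142) and -3.25 for Mthfd2 (0.00761), both still called, and the counts for TCE and vehicle did not change. Depth limits Psat1 and Mthfd1l in liver, at 0 to 16 and 0 to 29 reads, and counting error alone leaves such levels uncertain.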
